A study of Mus musculus with 8 samples.

Results

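The genes described here encode the acid compartment of the cell and the machinery that delivers cytoplasm to it: lysosomal membrane proteins and hydrolases, subunits of the vacuolar proton pump (V-ATPase), 2 transcription factors of the TFEB family, and autophagy proteins. They were chosen by name, as a list of 38 symbols matched to the Ensembl gene identifiers of the files. The rule itself uses no measured value, but the list was chosen with earlier results of these data known. Of the 38 genes, 37 were found in both of the authors' deposited tables, among 23634 and 21201 genes; Map1lc3b is not analysed here. All 37 carried an adjusted p-value in both tables.

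The study compared livers of Cpeb4 knockout mice with those of wild-type mice. Cpeb4 encodes an RNA-binding protein that recognises cytoplasmic polyadenylation elements in mRNA. RNA came either from whole flash-frozen liver or from kit-purified endoplasmic reticulum (ER), with 2 libraries for each of knockout liver, wild-type liver, knockout ER and wild-type ER, or 8 in all. The ER was taken from mice that had been fasted overnight; for the whole-liver RNA the feeding state, and for all groups the age, the sex, the strain and the design of the knockout allele, are not stated in the labels, which list no treatment. Whether the 2 libraries of each group stem from different mice is not stated, so every p-value here reflects only the spread among these libraries, and that spread may be technical. Bulk liver RNA does not tell fewer cells of a type from less RNA per cell.

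The values are those of the 2 deposited comparison tables, called here the larger and the smaller table by their number of genes. Neither names the RNA preparation it covers, so neither was assigned to liver or ER. For each gene they hold 1 mean normalised count over all libraries of the comparison and 1 log2 fold change with its standard error (SE), so no value per library or per genotype can be shown for any gene. Summed over genes, the mean counts came to 37351703 (larger) and 36848665 (smaller), and the step sizes of the lowest means showed 4 libraries behind each. Direction was read from Cpeb4 itself, whose log2 fold change in the authors' deposited tables was -1.16 ± 0.11 (SE, adjusted p = 3.18e-24, DESeq2 Wald test) and -1.10 ± 0.13 (SE, adjusted p = 2.30e-12). The headers do not name the numerator, so a positive value is described as higher in the knockout on that reading alone. The gene with the highest mean among the hepatocyte markers was Alb, the albumin gene, in both tables.

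Lysosomes are acidic organelles in which hydrolases break down proteins, glycans and lipids. The hydrolases are made on the ER and sorted onward, the V-ATPase pumps protons into the lumen, and membrane proteins such as LAMP1 and LAMP2 line the organelle. In autophagy a membrane sheet, nucleated by the ULK1 and Beclin 1 complexes and decorated with lipid-linked ATG8 proteins, encloses cytoplasm and fuses with lysosomes; in liver the process is known for its response to fasting and for the turnover of lipid droplets. TFEB and TFE3 are transcription factors that bind E-box motifs in the promoters of many lysosomal genes.

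Because the TFEB factors are themselves among the genes, promoters were read for the motif they bind. RefSeq promoters (GRCm38.p6, 250 bases before to 50 bases after each start) were found for 30 of the 38 genes. The E-box letters CACGTG, which read the same on both strands, stood in a promoter of 11 of the 30 genes (36.7%), against 12.0% of the 8553 genes with a promoter that were tested in both tables. Counted by promoter, 30.6% of 36 held it, against 9.94% of 11007. Among the lysosomal and V-ATPase genes 9 of 16 (56.2%) had the E-box, and among the autophagy genes and TFEB factors 2 of 14 (14.3%), namely Atg5 and Atg7. The longer TCACGTGA, which contains the E-box, occurred in 5 of 30 genes (16.7%) against 2.24%. The CLEAR element, which adds a base on either side of that, was found in 0 of 30 genes against 0.795%. A match of letters is a description and no evidence of binding. The 4 promoters shown are those of Lamp1, Mcoln1 and Ctsa, which hold more than 1 E-box, and that of Ctsl, the gene with the largest difference between genotypes; capitals mark TCACGTGA where present and CACGTG otherwise.
Lamp1, chr8:13158911-13159210, plus strand: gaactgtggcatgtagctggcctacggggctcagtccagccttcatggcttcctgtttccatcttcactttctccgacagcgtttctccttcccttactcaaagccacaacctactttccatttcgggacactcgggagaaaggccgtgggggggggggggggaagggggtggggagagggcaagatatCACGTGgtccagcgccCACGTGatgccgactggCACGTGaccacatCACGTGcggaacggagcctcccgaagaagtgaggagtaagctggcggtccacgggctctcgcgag
Mcoln1, chr8:3500269-3500568, plus strand: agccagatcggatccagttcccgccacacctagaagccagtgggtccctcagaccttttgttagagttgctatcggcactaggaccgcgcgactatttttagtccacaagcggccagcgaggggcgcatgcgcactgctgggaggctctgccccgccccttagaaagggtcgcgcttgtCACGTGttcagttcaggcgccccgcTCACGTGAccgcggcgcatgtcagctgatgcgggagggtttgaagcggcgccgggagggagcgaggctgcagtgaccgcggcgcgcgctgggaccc
Ctsa, chr2:164833523-164833822, plus strand: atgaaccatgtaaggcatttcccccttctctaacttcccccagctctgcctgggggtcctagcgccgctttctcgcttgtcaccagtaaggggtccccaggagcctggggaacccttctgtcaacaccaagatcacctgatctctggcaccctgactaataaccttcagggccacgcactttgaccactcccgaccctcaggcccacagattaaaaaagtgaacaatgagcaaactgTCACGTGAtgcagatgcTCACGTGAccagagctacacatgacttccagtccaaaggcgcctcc
Ctsl, chr13:64370471-64370770, minus strand: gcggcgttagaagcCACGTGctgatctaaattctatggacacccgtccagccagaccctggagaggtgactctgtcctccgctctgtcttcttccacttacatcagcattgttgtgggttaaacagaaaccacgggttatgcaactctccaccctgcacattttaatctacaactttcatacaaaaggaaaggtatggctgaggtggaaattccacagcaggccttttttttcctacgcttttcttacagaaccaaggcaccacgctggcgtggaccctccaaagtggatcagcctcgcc
The Lamp1 promoter held 4 E-boxes, Mcoln1 and Ctsa 2 each, and Ctsl 1; Gla, not shown, also held 2. Ctsa has 2 promoters in the table, and the second is shown.

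CPEB proteins bind cytoplasmic polyadenylation elements near the 3′ end of mRNAs, so the last 200 bases of the annotated 3′ untranslated region (GENCODE M21, GRCm38, 1 transcript per gene) were searched on the transcript strand for TTTTAT and TTTTAAT. At least 1 of them stood in that window in 8 of 36 genes long enough to have one (22.2%), against 2750 of 9173 tested genes (30.0%). A site from each of 7 of these genes is shown, with these letters in capitals, to give the mRNAs that carry them. None of the 37 genes passed the test of genotype, these 8 included, so that result says nothing particular about genes with the elements.
Lamp1, chr8:13175135-13175158, plus strand: tggcattatTTTTATttacttttt
Ctsa, chr2:164840946-164840969, plus strand: taagtatggTTTTATctaaggaaa
Ctsh, chr9:90075957-90075981, plus strand: attgtggttTTTTAATgacccaaac
Gaa, chr11:119285417-119285441, plus strand: tgtacttacTTTTAATaaaaaggat
Atp6v1b2, chr8:69113638-69113662, plus strand: atgattataTTTTAATgtagaaaat
Atg16l1, chr1:87792341-87792364, plus strand: gggcacatcTTTTATttatttaat
Nbr1, chr11:101581764-101581787, plus strand: cactaaagaTTTTATtcatgtttg

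None of the 37 genes differed between knockout and wild-type at an adjusted p under 0.05 in either of the authors' deposited tables (DESeq2 Wald test). Over all tested genes 0.296% of 14180 were called in the larger table, and for the smaller table it was 0.266% of 11661. By direction the called shares were 0.0917% higher and 0.205% lower, and 0.163% higher and 0.103% lower. At an unadjusted p under 0.05 there were 2 of the 37 in the larger table, Ctsl and Wipi1, and 1 in the smaller, Ctsl, all above 0; over all tested genes 1.63% and 2.14% were higher at that level, 2.00% and 1.96% were lower, and 3.62% and 4.11% differed in either direction. Log2 fold changes of the 37 lay between -0.18 and 0.33, with a median of -0.04, in the larger table, where the median of all tested genes was 0.00. For the smaller table the limits were -0.21 and 0.34, with a median of -0.03. Above 0 lay 15 genes and below it 22, in either table, and 27 had the same sign in both. Except for Ctsl, each of the 37 had an adjusted p of 0.99999 in the larger of the authors' deposited tables and of 0.99944 in the smaller.

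The precision sets what could have been seen. The median SE of the 37 genes on the log2 scale was 0.0927 (larger) and 0.116 (smaller), and the smallest absolute Wald score among called genes was 3.80 and 3.84. A gene of median SE therefore needed a log2 fold change of about 0.35 or 0.45 to be called. The 95% intervals of the 37 reached no further than -0.39 and 0.55 (larger table), and than -0.47 and 0.58 (smaller table). Fold changes in both tables behave as moderated estimates drawn towards 0, so these intervals describe the shrunken values and can understate a true difference. In both tables the log2 fold change was within 0.1 of 0 for 23 of the 37 genes.

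**Figure D1:**
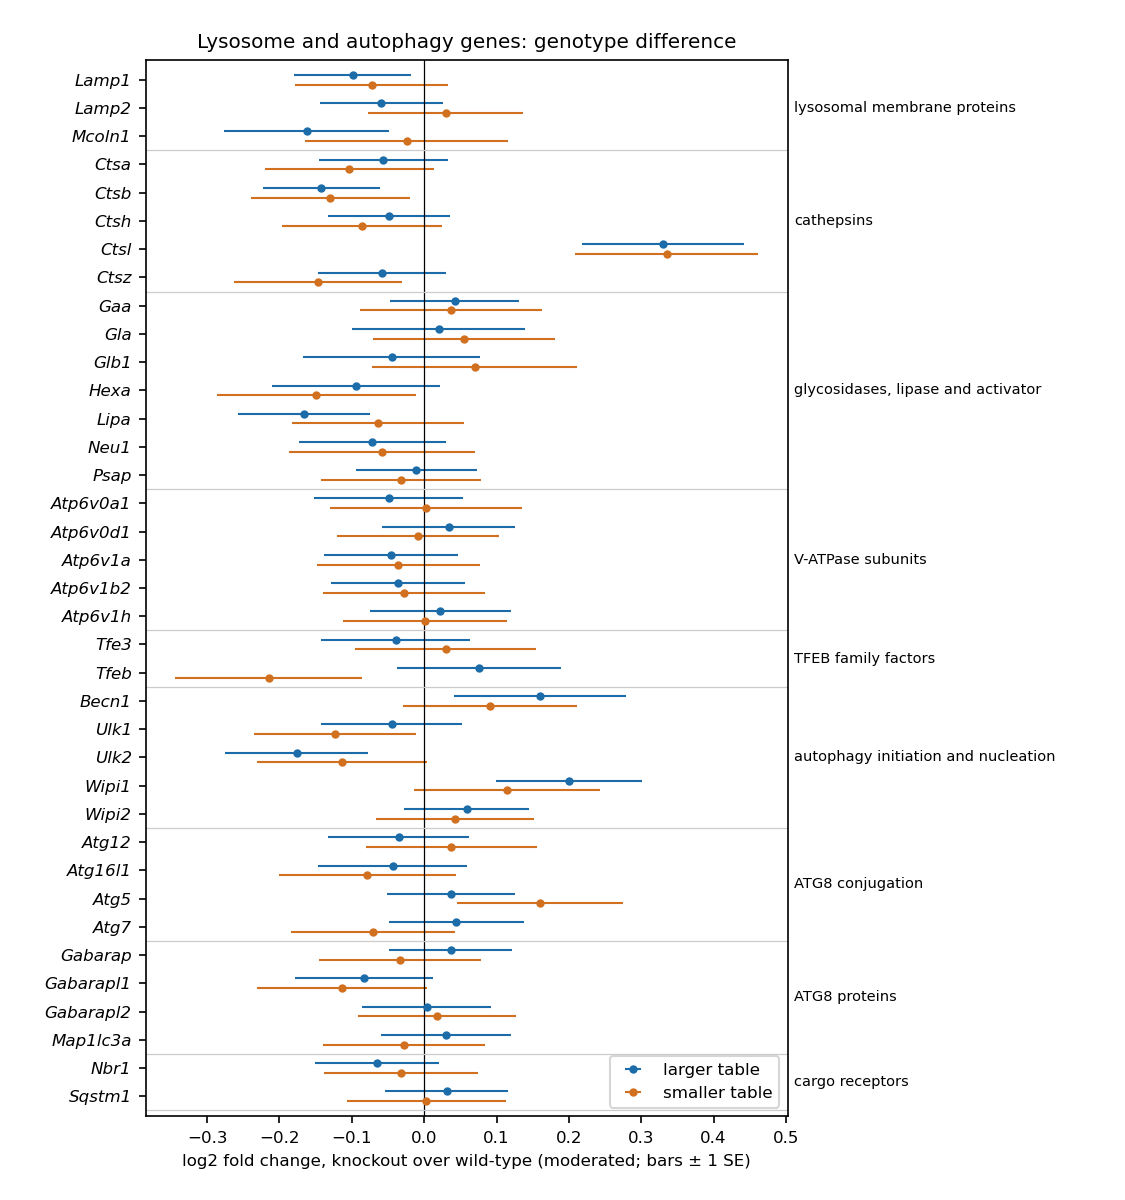
Log2 fold change, knockout over wild-type, of the 37 genes in the authors' deposited larger and smaller tables, grouped by role. Points are estimates, and bars extend by the SE to either side. The 95% intervals are wider than these bars and are not drawn. They cover 0 for 35 of 37 genes in the larger table and for 36 of 37 in the smaller. Ctsl stands to the right in both tables.

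The 3 lysosomal membrane protein genes were below 0 in the larger table, with a median of -0.10, and had a median of -0.02 in the smaller. In the authors' deposited tables Lamp1, a heavily glycosylated protein of the lysosomal membrane, had a mean of 12618 counts and a log2 fold change of -0.10 ± 0.08 (SE, p = 0.224) in the larger table, and 7573 counts with -0.07 ± 0.11 (SE, p = 0.492) in the smaller. Lamp2, its relative that also serves chaperone-mediated autophagy, had 14548 and 8290 counts with -0.06 ± 0.08 and 0.03 ± 0.11 (SE). Mcoln1, which encodes the calcium channel TRPML1, had 430 and 245 counts, and the authors' log2 fold change was -0.16 ± 0.11 (SE, p = 0.154) and -0.02 ± 0.14 (SE). All of these values stand in the authors' deposited tables, and none passed the test.

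Ctsl was the exception in size among the hydrolases. It encodes cathepsin L, a cysteine protease of the lysosome, and lies on the minus strand at chr13:64359337-64370890 (GRCm38, ENSMUSG00000021477). Its means were 14872 (larger) and 8256 (smaller) counts. The authors' deposited log2 fold change was 0.33 ± 0.11 (SE, 95% interval 0.11 to 0.55, p = 0.00335, adjusted p = 0.344) in the larger table. In the smaller the authors' value was 0.34 ± 0.13 (SE, 95% interval 0.09 to 0.58, p = 0.00799, adjusted p = 0.597). Both intervals lay above 0, and neither value passed the test once adjusted over all genes. Of the 31-base words in its annotated exons, 28.2% also occur in other genes, chiefly Gm47123, and Gm47123 and Gm49230 overlap it, so its count depends on the treatment of shared reads, a setting that the sources used here do not give. Its annotated 3′ untranslated region held 6 of the searched polyadenylation elements, none in the last 200 bases.

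The other 4 cathepsins had log2 fold changes below 0 in both tables, and none passed the test. Ctsb, cathepsin B, another cysteine protease, had 10748 counts and, in the authors' tables, -0.14 ± 0.08 (SE, p = 0.0779) in the larger table, and 5973 counts and -0.13 ± 0.11 (SE, p = 0.238) in the smaller. Ctsz, the carboxypeptidase cathepsin Z, had -0.06 ± 0.09 and -0.15 ± 0.12 (SE). Ctsh, an aminopeptidase, had -0.05 ± 0.08 and -0.09 ± 0.11 (SE), and Ctsa, a serine carboxypeptidase that also protects β-galactosidase and neuraminidase, had -0.06 ± 0.09 and -0.10 ± 0.12 (SE) in the authors' deposited tables. The contrast of Ctsl with these 4 was not tested and does not extend to every cathepsin: Ctso, of the further hydrolases, had 0.02 ± 0.11 and 0.05 ± 0.12 (SE), and Ctsd, cathepsin D, 0.03 ± 0.08 and -0.04 ± 0.11 (SE).

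Among the glycosidases, the lipase and the activator precursor, the largest value in the larger table belonged to Lipa. It encodes lysosomal acid lipase, which splits cholesteryl esters and triglycerides, and had a mean of 5051 counts with the authors' value of -0.17 ± 0.09 (SE, p = 0.0695); in the smaller table it had 1961 counts with -0.06 ± 0.12 (SE). Hexa, a glycosidase gene of ganglioside breakdown, had the largest value of the group in the smaller table, where the authors gave -0.15 ± 0.14 (SE, p = 0.278) at 517 counts, beside -0.09 ± 0.12 (SE, p = 0.416) at 941 counts in the larger. Gaa, the enzyme that degrades lysosomal glycogen, had 0.04 ± 0.09 and 0.04 ± 0.13 (SE). Psap, whose product is cut into the saposins that assist sphingolipid breakdown, had -0.01 ± 0.08 and -0.03 ± 0.11 (SE), although it was the most abundant lysosomal gene per length in the larger table. Neu1, Glb1 and Gla, which encode a sialidase, β-galactosidase and α-galactosidase, lay between -0.07 and 0.07. Over the 15 lysosomal membrane and hydrolase genes 12 were below 0 in the larger of the authors' deposited tables and 10 in the smaller, where 7152 of 14180 and 5797 of 11661 tested genes were below 0.

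The V-ATPase subunits were close to 0 throughout the authors' deposited tables. Their log2 fold changes lay between -0.05 and 0.03 (larger table) and between -0.04 and 0.00 (smaller table). Atp6v0a1, a subunit that spans the membrane, had the largest absolute value in the larger of the authors' tables, -0.05 ± 0.10 (SE, p = 0.635), and 0.00 ± 0.13 (SE, p = 0.984) in the smaller. Atp6v1a, the catalytic subunit, had the largest in the smaller of the authors' tables, -0.04 ± 0.11 (SE, p = 0.751), and -0.05 ± 0.09 (SE, p = 0.617) in the larger. Atp6v1b2, Atp6v1h and Atp6v0d1, which encode other parts of the pump on its cytosolic side, lay within 0.04 of 0 in both tables.

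Tfeb and Tfe3 encode the transcription factors that move to the nucleus when nutrient signalling through mTORC1 falls. In the authors' tables Tfeb had a mean of 517 counts and a log2 fold change of 0.08 ± 0.11 (SE, p = 0.505) in the larger table, and 549 counts and -0.21 ± 0.13 (SE, p = 0.0957) in the smaller, the lowest value of the 37 genes there. Tfe3 had 884 and 756 counts with -0.04 ± 0.10 and 0.03 ± 0.12 (SE). The difference between the authors' deposited tables for Tfeb, smaller minus larger, was -0.29 (95% interval -0.63 to 0.05, p = 0.0908), the smallest p of the 37. The mRNA level of these factors does not report where the proteins are in the cell.

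Of the genes that start an autophagosome, Wipi1 and Ulk2 had the largest values in the larger table. Wipi1 encodes a protein that binds phosphatidylinositol 3-phosphate on the forming membrane and lies on the minus strand at chr11:109573331-109611967 (GRCm38). It had a mean of 1048 counts and, from the authors, a log2 fold change of 0.20 ± 0.10 (SE, 95% interval 0.00 to 0.40, p = 0.0463, adjusted p = 0.99999), and 790 counts with 0.11 ± 0.13 (SE, p = 0.372) in the smaller table. Ulk2, a kinase that acts beside ULK1, had -0.18 ± 0.10 (SE, p = 0.0728) and -0.11 ± 0.12 (SE) in the authors' deposited tables. Ulk1 had the largest absolute value of this role in the smaller of the authors' tables, -0.12 ± 0.11 (SE, p = 0.271), beside -0.04 ± 0.10 (SE, p = 0.643) in the larger. Wipi2, which recruits the ATG16L1 complex, lay at 0.06 ± 0.09 and 0.04 ± 0.11 (SE). Becn1, the Beclin 1 gene of the lipid kinase complex, had 0.16 ± 0.12 and 0.09 ± 0.12 (SE) on means of 303 and 56.0 counts. It shares 40.0% of its 31-base words with other genes, chiefly Cntd1, an overlapping gene on the opposite strand. Without the strand setting, reads that lie within the words shared with Cntd1 cannot be told from reads of Cntd1.

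The conjugation genes lay near 0 as well, and none passed the test. Atg5, part of the complex that attaches ATG8 proteins to lipid, had from the authors 2570 counts and 0.04 ± 0.09 (SE, p = 0.679) in the larger and 2715.5 counts and 0.16 ± 0.11 (SE, p = 0.162) in the smaller table, the largest of its role there. Atg7, the activating enzyme and the largest of the role in the larger table, had 0.04 ± 0.09 (SE, p = 0.635) and -0.07 ± 0.11 (SE, p = 0.535), Atg12 -0.04 ± 0.10 and 0.04 ± 0.12 (SE), and Atg16l1 -0.04 ± 0.10 and -0.08 ± 0.12 (SE) in the authors' deposited tables. Each of these 4 therefore had a 95% interval that included 0 in both.

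The ATG8 proteins and cargo receptors include the most abundant mRNAs of the set, and none passed the test. Gabarapl1, an ATG8 protein, had in the authors' tables a mean of 20079 counts and -0.08 ± 0.10 (SE, p = 0.382) in the larger, and 21661 counts and -0.11 ± 0.12 (SE, p = 0.333) in the smaller. Of its words, 25.2% are shared with other genes, chiefly 1700101I11Rik. Map1lc3a, Gabarap and Gabarapl2, further ATG8 proteins, lay between -0.03 and 0.04 in the authors' deposited tables. Sqstm1, the receptor p62 that links ubiquitinated cargo to ATG8 proteins, had the highest mean counts of the 37, 21580 and 29506, with 0.03 ± 0.09 and 0.00 ± 0.11 (SE). Nbr1, a receptor of similar design, had 8247 and 8621 counts with the authors' values of -0.07 ± 0.09 (SE, p = 0.447) and -0.03 ± 0.11 (SE, p = 0.764).

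No gene of the 37 passed the test of a difference between the tables in its genotype effect (z test on the authors' deposited log2 fold changes, smallest adjusted p = 0.9999). Over all genes tested in both, 2 of 11604 (0.0172%) passed, and 0.138% had an unadjusted p under 0.05, which 0 of the 37 had. On the authors' values the smallest p after Tfeb belonged to Atg5 (difference 0.12, p = 0.394), Atg7 (-0.11, p = 0.435), Mcoln1 (0.14, p = 0.444) and Lipa (0.10, p = 0.495). For Ctsl the difference of the authors' values was 0.01 (95% interval -0.33 to 0.34, p = 0.975). The test treats the tables as independent, and its z values had an SD of 0.535 over all genes, below the 1 that the test assumes, and a p that misses the threshold does not show equal effects. The labels number livers and ER preparations alike, so the tables may rest on the same mice, and the same sign between them is no independent repeat.

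Levels were compared between genes per length, as the mean count per kilobase of annotated exon scaled so that each table sums to 1000000 (ppm). The median of the 37 genes was 26.9 ppm (larger table) and 18.0 ppm (smaller table), against 6.17 and 6.60 ppm over all tested genes. Gabarapl1 was the highest, at 528 and 578 ppm. After it came Sqstm1 (340 ppm), Psap (262 ppm), Gabarap (258 ppm) and Lamp1 (249 ppm) in the larger table, and Gabarap (493 ppm), Sqstm1 (472 ppm), Map1lc3a (217 ppm) and Lamp1 (152 ppm) in the smaller. Ctsl, at 121 and 68.3 ppm, ranked 8 and 10. The lowest were Gla (1.65 ppm), Becn1 (2.27 ppm) and Mcoln1 (3.01 ppm) in the larger table, and Becn1 (0.426 ppm), Gla (0.855 ppm) and Mcoln1 (1.74 ppm) in the smaller. For Becn1 the level depends on how reads shared with Cntd1 were treated, which is not known. ATG8 proteins and receptors thus stood well above the kinases and initiation genes, whose highest, Ulk1, had 26.9 and 22.5 ppm. The spread of these levels over libraries cannot be had from the authors' deposited tables, so neighbours in the order are not separated. With the median length of complete coding transcripts in place of exon length, the medians became 36.7 and 33.0 ppm.

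**Figure D2:**
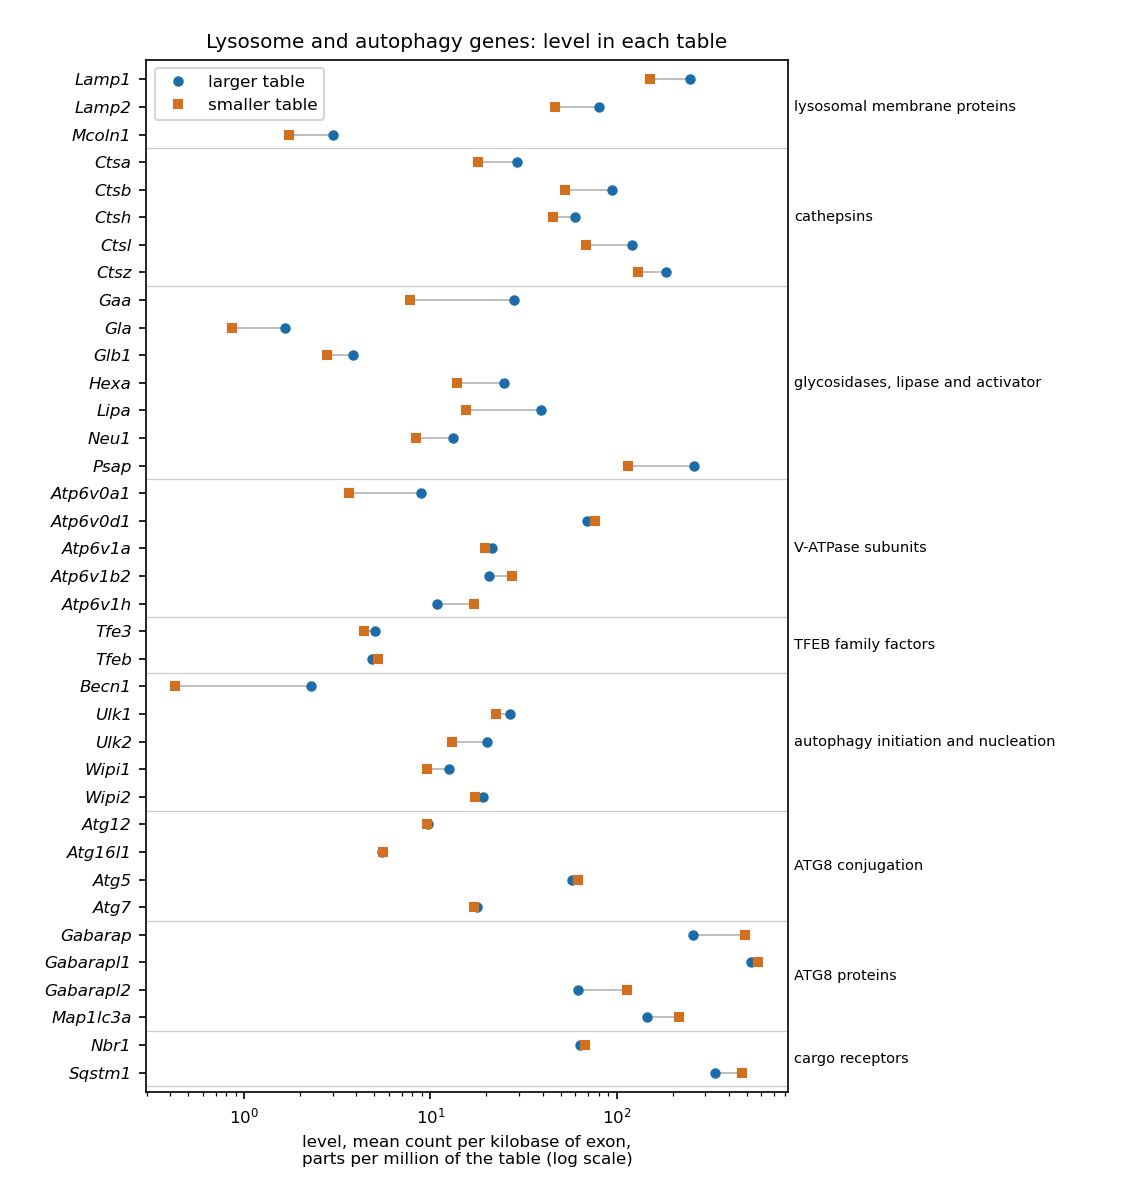
Mean level of the 37 genes per kilobase of exon, as ppm of each of the authors' deposited tables on a log axis, grouped by role. Gabarapl1, Gabarap and Sqstm1 lie at the high end, up to 578 ppm, and Becn1 and Gla at the low end.

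The balance of levels between the tables is given by role. Each gene's mean in the larger table was divided by that in the smaller and set relative to the median gene, whose ratio was 1.19. All 15 lysosomal membrane and hydrolase genes stood higher in the larger table on this scale, with a median of 1.47-fold; by definition 50% of all genes did. Cell type markers leaned the same way, with 7 of 7 endothelial markers higher in the larger table (median 1.89-fold), 8 of 9 hepatocyte markers (1.35-fold), 10 of 14 macrophage markers (1.25-fold) and 5 of 6 stellate cell markers (1.25-fold), so a higher level in that table is not particular to lysosomal genes. Cholangiocyte and lymphocyte markers had 1 of 3 (0.805-fold) and 1 of 2 (0.798-fold). The largest was Gaa (3.10-fold), then Lipa (2.16-fold) and Psap (1.94-fold), and the smallest Ctsh (1.12-fold). Of the 15 autophagy genes 4 stood higher in the larger table, with a median of 0.847-fold. Those 4 were the initiation genes Becn1 (4.54-fold), Ulk2 (1.31-fold), Wipi1 (1.11-fold) and Ulk1 (1.02-fold). The value of Becn1 rests on a mean of 56.0 counts in the smaller table. It also depends on the treatment of reads shared with other genes, chiefly Cntd1, since 40.0% of its words are shared.

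ATG8 proteins had the lowest median of any role, 0.516-fold, with 0.447-fold for Gabarap, 0.465-fold for Gabarapl2, 0.573-fold for Map1lc3a and 0.777-fold for Gabarapl1, and Sqstm1 had 0.613-fold. V-ATPase genes were split. Atp6v0a1, which spans the membrane, had 2.08-fold, whereas the other 4 lay between 0.543-fold (Atp6v1h) and 0.918-fold (Atp6v1a). Adding the pathway's other subunits and grouping them by place, a grouping made after the values were seen and so not tested, 6 of 7 subunits in the membrane stood higher in the larger table, with a median of 1.50-fold, and 0 of 10 cytosolic ones, with a median of 0.594-fold. The exception in the membrane was Atp6v0e.

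Scaling matters for the counts nearest the middle. In ppm, where 7339 of 11604 genes stood higher in the larger table, all 15 lysosomal genes still did, with 7 of 15 autophagy genes, 6 of 7 membrane V-ATPase subunits and 1 of 10 cytosolic ones. With the means as deposited the numbers were 15, 8, 6 and 1. These are levels set across tables that the authors normalised separately, over knockout and wild-type together, so they say nothing of genotype and carry no SE. Relative to the median gene, the middle 50% of all genes ran from -0.47 to 0.45 on the log2 scale. What sets these differences in level was not tested. If the tables cover different RNA preparations, the preparation, any difference in feeding state and the separate normalisation cannot be told apart.

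**Figure D3:**
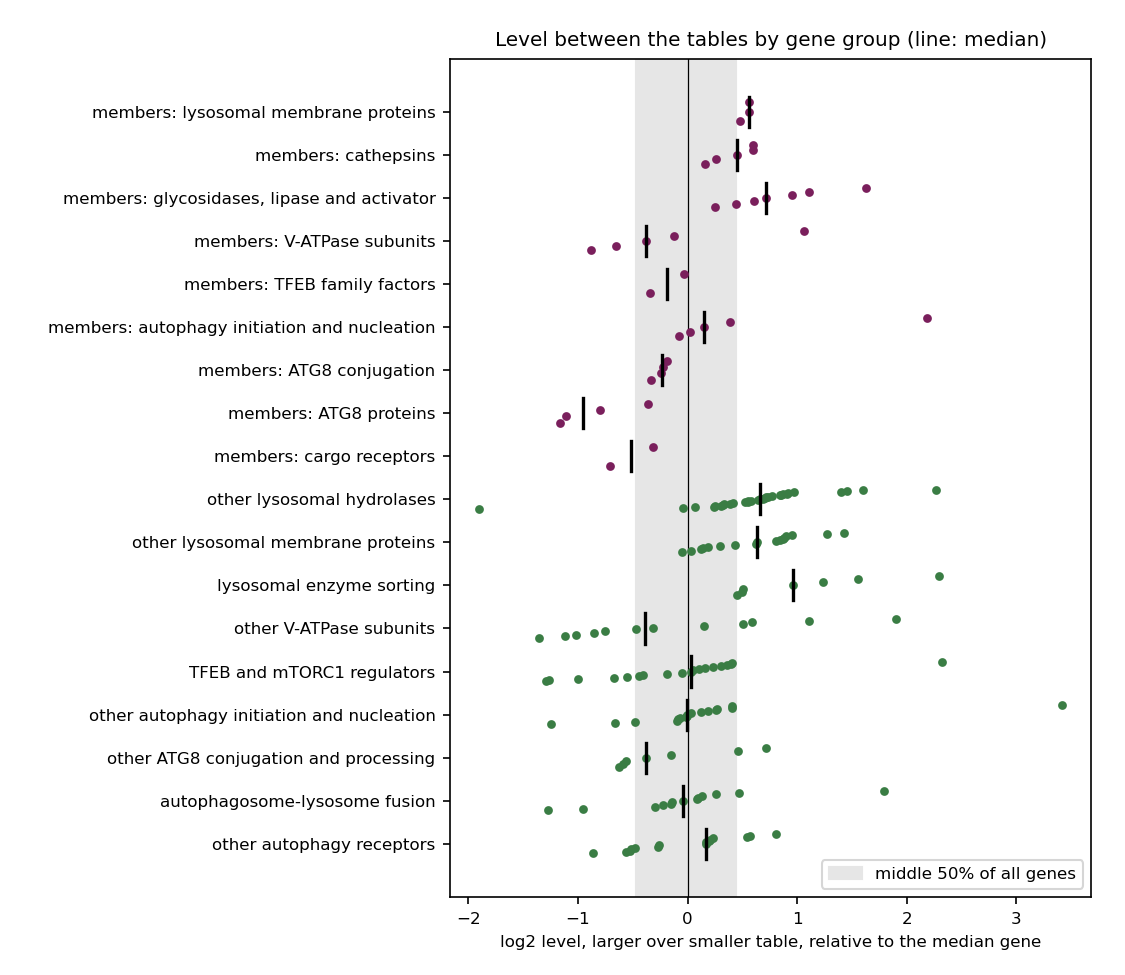
Mean level in the larger table over the smaller, log2 relative to the median gene, for the 37 genes by role, from the authors' deposited means. Among the 37, the lysosomal membrane and hydrolase genes all lie above 0, and the ATG8 genes and receptors below it. In the further lists 2 of 31 hydrolases and 1 of 17 membrane proteins lie below 0, and 8 of 15 receptors above it.

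The rest of the pathway was read from 9 lists of 150 further genes, of which 142 (larger table) and 138 (smaller table) were tested. None was called in either (adjusted p, authors' deposited tables), against the same 0.296% and 0.266% of all genes. At an unadjusted p under 0.05 there was 1 higher and 3 lower in the larger table, and 1 higher and 1 lower in the smaller. Their median log2 fold change was -0.04 and -0.05 (all tested genes 0.00), with 100 of 142 and 89 of 138 below 0. Below 0 in the larger of the tables were 25 of 33 further hydrolases, 13 of 18 further membrane proteins and 10 of 13 genes of autophagosome-lysosome fusion. The counts in the smaller were 23 of 31, 12 of 17 and 11 of 13. Further initiation genes had 12 of 17 and 13 of 17 below 0, and further V-ATPase subunits 8 of 12 in both. The remaining lists did not keep this lean in the smaller table: sorting genes had 4 of 7 and 3 of 7 below 0, conjugation genes 5 of 7 and 3 of 7, TFEB and mTORC1 regulators 13 of 20 and 9 of 19, and further receptors 10 of 15 and 7 of 15. These sign counts are descriptions, since genes of 1 comparison share the same libraries.

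Gm2a had the smallest p of the further hydrolase list in both tables. It encodes an activator protein for ganglioside breakdown, and its log2 fold change was -0.29 ± 0.09 (SE, p = 0.00169, adjusted p = 0.250) in the larger of the authors' deposited tables and -0.28 ± 0.12 (SE, p = 0.0161, adjusted p = 0.786) in the smaller. Atg16l2, a relative of Atg16l1, led the conjugation list in the authors' tables with 0.34 ± 0.12 (SE, p = 0.00604, adjusted p = 0.504) and 0.34 ± 0.14 (SE, p = 0.0159, adjusted p = 0.786). Gm2a lay below 0 and Atg16l2 above it in both tables, and neither passed the test. Bnip3, a mitophagy receptor, had in the authors' tables -0.19 ± 0.08 (SE, p = 0.0177, adjusted p = 0.927) and -0.13 ± 0.10 (SE, p = 0.227). Ctsc, cathepsin C, had -0.24 ± 0.10 (SE, p = 0.0215, adjusted p = 0.99999) in the larger of the authors' tables and -0.11 ± 0.13 (SE, p = 0.389) in the smaller.

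Other lists were led by genes with an unadjusted p above 0.05. Rubcn, whose product Rubicon restrains autophagy, had -0.21 ± 0.11 (SE, p = 0.0601) and -0.24 ± 0.13 (SE, p = 0.0688) in the authors' deposited tables. For Atp6v0d2, a V-ATPase isoform of restricted tissue range, the authors' values were 0.23 ± 0.12 (SE, p = 0.0516) and 0.26 ± 0.14 (SE, p = 0.0592). For Tpcn1, an endolysosomal channel, the authors' values were -0.17 ± 0.09 (SE, p = 0.0709) and -0.21 ± 0.12 (SE, p = 0.0960). The sorting list was led in the larger of the authors' tables by Igf2r, with -0.16 ± 0.11 (SE, p = 0.118) beside -0.04 ± 0.14 (SE) in the smaller. It was led in the smaller by Gnptg, with -0.11 ± 0.14 (SE, p = 0.450, the authors' test) beside -0.10 ± 0.12 (SE) in the larger. Fnip1 led the mTORC1 list in the larger of the authors' tables with -0.15 ± 0.11 (SE, p = 0.175), and lay on the other side of 0 in the smaller, at 0.04 ± 0.13 (SE). Tsc2 led that list in the smaller, where the authors gave -0.19 ± 0.12 (SE, p = 0.111), beside -0.05 ± 0.10 (SE) in the larger. Of the fusion genes, Snap29 had the authors' values of -0.13 ± 0.10 (SE, p = 0.192) and -0.10 ± 0.12 (SE), and Vps16 -0.10 ± 0.11 (SE) and -0.17 ± 0.12 (SE, p = 0.172). The receptor list was led in the smaller table by Retreg1, an ER-phagy receptor, for which the authors gave 0.22 ± 0.13 (SE, p = 0.0968), beside 0.08 ± 0.12 (SE) in the larger.

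The further lists were set on the same scale of level. Relative to the median gene, 29 of 31 further hydrolases, 16 of 17 further membrane proteins and 7 of 7 sorting genes stood higher in the larger table, with medians of 1.58-fold, 1.55-fold and 1.94-fold. Cd63 was the exception among the membrane proteins. Further initiation, fusion and mTORC1 genes had medians of 0.997-fold, 0.974-fold and 1.02-fold, and further receptors 1.12-fold.

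**Figure D4:**
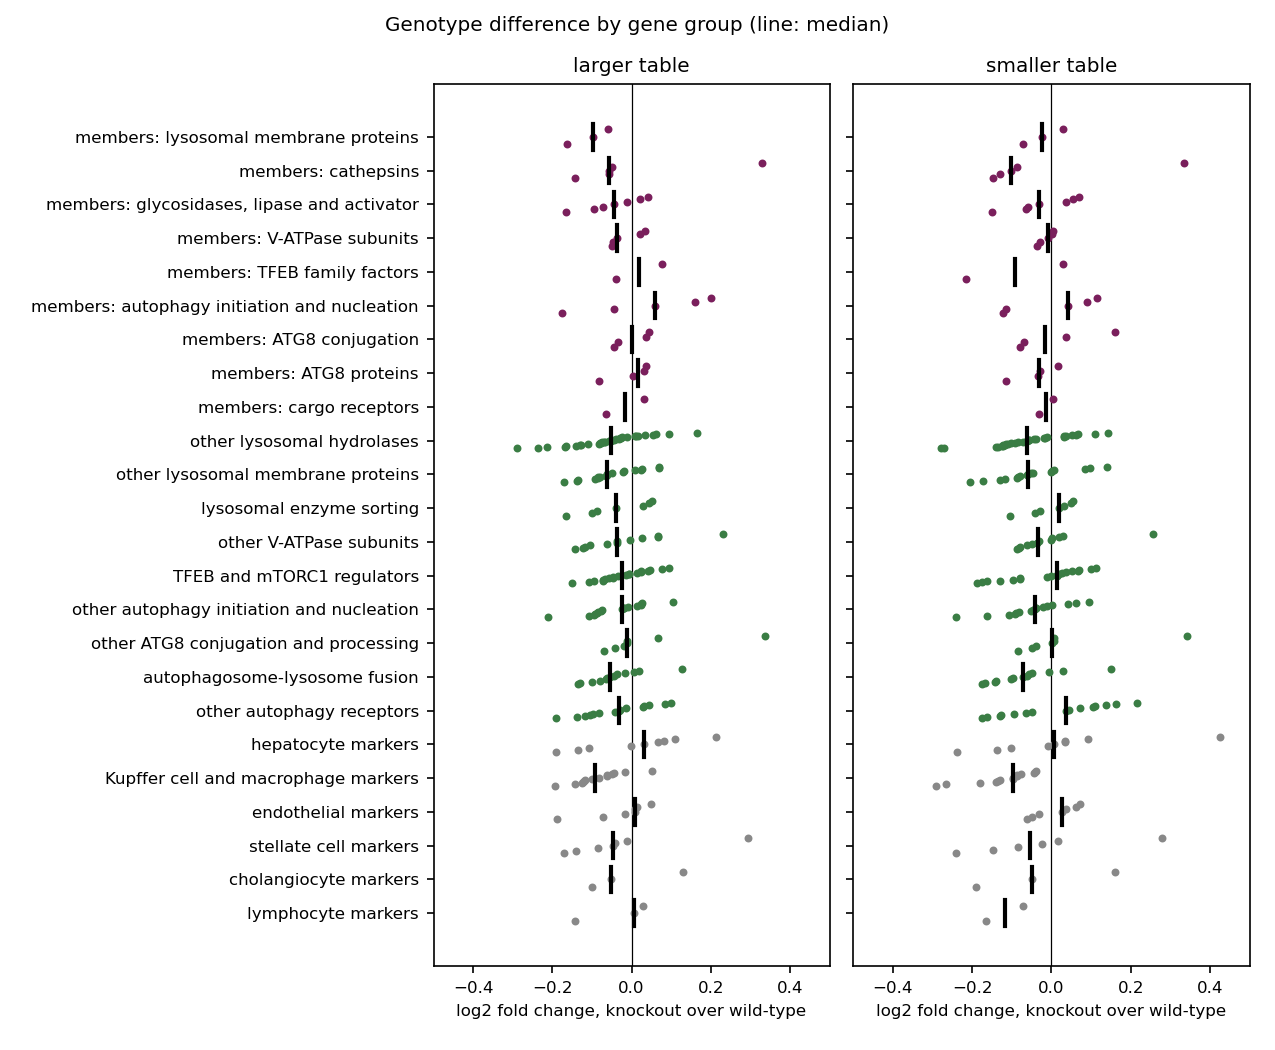
Log2 fold change, knockout over wild-type, of each tested gene (point) in the role groups (purple), further lists (green) and cell type markers (grey), from the authors' deposited tables, with black lines at list medians. List medians lie near 0 in both tables. The further hydrolases and membrane proteins lie mostly below it, as do other lists, among them the fusion genes, the further initiation genes and the macrophage markers.

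Kupffer cells and macrophages are rich in lysosomes, so their markers were read beside the lysosomal genes. The marker list includes Ctss, a cathepsin gene, and Cd68, which encode lysosomal proteins themselves, so the 2 sets of genes are not fully distinct in kind. Of 14 macrophage markers 13 lay below 0 in the larger table (median -0.09) and 14 in the smaller (median -0.10); 0 were called, and 0 and 2 had an unadjusted p under 0.05, C1qb (-0.27) and C1qc (-0.29). Their summed level was 304 ppm and 229 ppm, with Clec4f, a Kupffer cell lectin, at mean counts of 1668 and 1306 and Adgre1 at 233 and 96.9. No marker of the list was at 0. A range of the summed level in each genotype cannot be had from the authors' deposited tables, and the part of macrophage RNA in the lysosomal values was not tested. Hepatocyte markers lay on both sides of 0, with 5 of 9 above it in each table. At an unadjusted p under 0.05 they had Ttr in both tables (-0.19 and -0.24) and Cps1 in the smaller (0.43). The stellate cell markers had Rgs5 in both (0.29 and 0.28), and the endothelial, cholangiocyte and lymphocyte markers had none at that level. Median log2 fold changes of the endothelial markers were 0.01 and 0.03, of the stellate cell markers -0.05 and -0.05, of the cholangiocyte markers -0.05 and -0.05, and of the lymphocyte markers 0.01 and -0.12, the last from 3 and 2 tested genes.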

How the data were processed

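RNA libraries of knockout and wild-type mouse liver and liver ER (4 groups of 2) were sequenced on Illumina protocols, per the labels' protocols. Per the submitters' processing notes the tools were STAR 2.3.0e and DESeq2 1.6.3 and the build mm10, with no roles stated; annotation, counting tool and strand setting are not given in the sources used. Per the file headers, each of the 2 deposited tables holds a mean signal (normalised counts averaged over libraries), a log2 fold change with its SE, the Wald score, and p-values before and after adjustment. Genes without an adjusted p-value (9454 and 9540, those of lowest mean) were left out of tests. The planned test was the authors' DESeq2 Wald test, at an adjusted p of 0.05. An edgeR analysis was foreseen only in case counts per library were found, and was not run, because the deposited tables hold none.

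Here the differences between tables (z test over the root of the summed squared SE, Benjamini-Hochberg over 11604 genes, tested on simulated data), 95% intervals, list counts and levels per kilobase of exon were computed with scipy 1.17.1, numpy 2.4.6 and pandas 2.3.3 (Python 3.11.15). The simulated fold changes were drawn independently for each table with the deposited SE. They therefore do not cover the narrower spread of the real z values, whose SD was 0.535. Symbols came from GENCODE M21 for 23484 of 23634 and 21080 of 21201 identifiers. Depth was read from single-read steps of the lowest means, which were whole combinations in 3687 of 3687 and 3499 of 3499 genes with a mean under 1 (tolerance 1e-06), and libraries differed from 0.717 to 1.26 and from 0.839 to 1.64 in relative depth. No step was assigned to a sample, and counting intervals cannot be given.

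The genes and lists were chosen with earlier results of these data known. The log2 fold change, SE and p-value were given for genes with an unadjusted p under 0.05 in either table, for the gene of largest absolute log2 fold change in each role and table, and for the gene of smallest p in each further list. Ctsc, Ctso, Ctsd, the membrane grouping of the V-ATPase and the level comparisons named beyond this rule were chosen after their values were seen. Alternatives were other mean filters, adjustment over other gene sets, leaving out genes that share sequence, and other lengths. Some items are not reported here.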

Additional observations from a re-analysis of the deposited data

How the results depend on the processing

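The count of genes called stayed at 0 of 37 in each deposited table under every adjustment tried (no filter on the mean, a mean of at least 100 counts, centring on the median gene, and leaving out the 3 genes that share over 25% of their sequence words). The adjusted p of Ctsl lay between 0.299 and 0.574 (larger table) and between 0.5215 and 0.9999 (smaller table). Median log2 fold changes ran from -0.041 to -0.039 and from -0.032 to -0.028. The difference between the tables also gave 0 genes when each table was centred or the z values were divided by their SD. With the longest transcript as the length, Ctsl ranked 9 and 13 by level, in place of 8 and 10, and with the median complete coding transcript, a length chosen after seeing the data, 7 and 11; the median level in the smaller table then moved from 18.0 to 33.0 ppm. No paired analysis was possible because the deposited tables carry no values per library and no replicate numbers. For the same reason leaving out a replicate was not possible, and the influence of single libraries is unknown. Differences under a log2 fold change of about 0.35 and 0.45 could not be called at the median SE.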
